A study of Mus musculus with 4 samples.

Results

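This section describes 33 genes of macrophages and of antigen presentation in mouse pancreatic islets. They were taken as a fixed list of symbols, out of 22481 symbols in the deposited expression table. All 33 had a row: 32 were found by symbol, and Adgre1 was found through its Ensembl identifier, because the table carries it under the earlier symbol Emr1. Fragments were assigned to 32 of them, and the T cell receptor gene Cd3e was at 0 in all 4 libraries. RNA sequencing was done on islets of 2-week-old mice of strain 129sv, with 2 libraries from a knockout called Ngn3Mettls KO (KO) and 2 from wild type (WT), each from a pool of more than 400 islets. Ngn3 is the earlier name of Neurog3, a transcription factor of endocrine progenitors, and the Mettl3 and Mettl14 proteins write N6-methyladenosine on RNA. The labels do not say which alleles were removed, in which cells, or whether pools shared animals or litters.

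Macrophages live inside healthy mouse islets and are the main cells there that display peptides on MHC class II. C1q, built from the products of C1qa, C1qb and C1qc, binds immune complexes and dying cells and starts the classical complement pathway. For class II display, the invariant chain Cd74 fills the groove of new alpha and beta chains, the protease cathepsin S (Ctss) trims it, and H2-DM helps a peptide take its place. Ciita switches on the genes of the alpha and beta chains, Cd74 and H2-DM, together with factors that sit on X and Y boxes in the promoters.

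Promoter sequences are shown for 3 class II genes, because X and Y boxes are known to switch this gene set on. The sequences are from RefSeq (GRCm38.p6, the mm10 build named for the deposited table), run 5′ to 3′ on the gene's strand, and cover the bases from 110 to 31 before the RefSeq start. Capitals mark the letters searched on both strands, AACNGATG for the X box and TGATTGG for the Y box.
H2-Aa, chr17:34287854-34287933, minus strand: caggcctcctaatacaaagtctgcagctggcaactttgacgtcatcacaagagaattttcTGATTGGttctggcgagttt
H2-Eb1, chr17:34305757-34305836, plus strand: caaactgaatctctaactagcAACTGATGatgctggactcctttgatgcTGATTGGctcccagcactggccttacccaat
H2-DMb1, chr17:34153081-34153160, plus strand: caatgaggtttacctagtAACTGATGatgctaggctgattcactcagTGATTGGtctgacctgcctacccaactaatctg

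H2-Eb1 and H2-DMb1 held both motifs, and H2-Aa held the Y box letters and no match to the X box letters. Of 32851 RefSeq promoter windows of the same kind, from 250 bases before to 50 after a start, 2.32% held the X box letters, 7.82% the Y box letters and 0.186% both. A RefSeq window was found for 23 of the members, and H2-Eb1 and H2-DMb1 were the 2 of these with both motifs. The class II genes Cd74, H2-Ab1 and Ciita had no window, so their promoters were not searched. The X box letters alone were in a window of Ctss and of Coro1a, which is no class II gene, the Y box letters alone were in those of H2-Aa and of Cd68, likewise no class II gene, and the class II gene H2-DMa had neither motif in its 2 windows. A match is a run of letters and was not tested as a site.

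The libraries held islet RNA with little immune RNA. The hormone genes Ins1, Ins2, Gcg, Sst, Ppy and Iapp summed to between 87216 and 103532 CPM per library, where CPM is counts scaled to a common library size after TMM normalisation. The 33 members summed to 347 and 228 CPM in the KO replicates 1 and 2, and to 244 and 130 CPM in the WT ones. Depth was 4057721 to 5232245 estimated fragments per library. Of the 32 members above 0, 5 had fewer than 10 fragments in every library, and 9 did not pass the filter on low counts. The other 23 were tested with edgeR. Pairs of values below give replicate 1 and then replicate 2 of a genotype. In bulk islets, fewer macrophages and less of a transcript per macrophage cannot be told apart.

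No member passed the test of KO against WT. Mean CPM was higher in KO for 27 of the 32 members above 0 and lower for 5, where 51.0% of all genes above 0 had the higher mean in KO. The edgeR test called 0 of the 23 members at an adjusted p under 0.05, against 29 of 12789 genes, or 0.227% (0.133% higher and 0.0938% lower in KO). At an unadjusted p under 0.05 it had 4 members, C1qa, H2-Eb1, Laptm5 and Cd79a, where 12.6% of all genes tested had such a p. DESeq2 called 0 members, against 148 of the 11053 genes to which it gave an adjusted p, or 1.34%. The low-count members H2-DMa, Mrc1, Itgax, Fcgr3, Cd53, Laptm5, Coro1a, Tyrobp, Fcer1g and Cd79a received no DESeq2 adjusted p and could not be called. DESeq2 had 4 members at an unadjusted p under 0.05, against 7.38% of 12789 genes. Limma on log2(FPKM + 1), where FPKM is fragments scaled by transcript length and library size, called 0 and had 6 of 22 members, against 10.9%. The median log2 fold change of the 23 tested members, KO minus WT, was 0.60, and over all genes tested it was 0.0046. The log2 fold change was positive for 22 of the 23 members and for 50.7% of all genes tested. That count depended on which library was left out. It was 13 of 24 tested members without KO replicate 1 and 18 of 25 without WT replicate 2. Without KO replicate 2 it was 24 of 25, and without WT replicate 1 it was 23 of 24. Laptm5 passed the filter through the KO libraries alone and Cd79a through the WT libraries alone, so their inclusion was not independent of their difference.

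**Figure D1:**
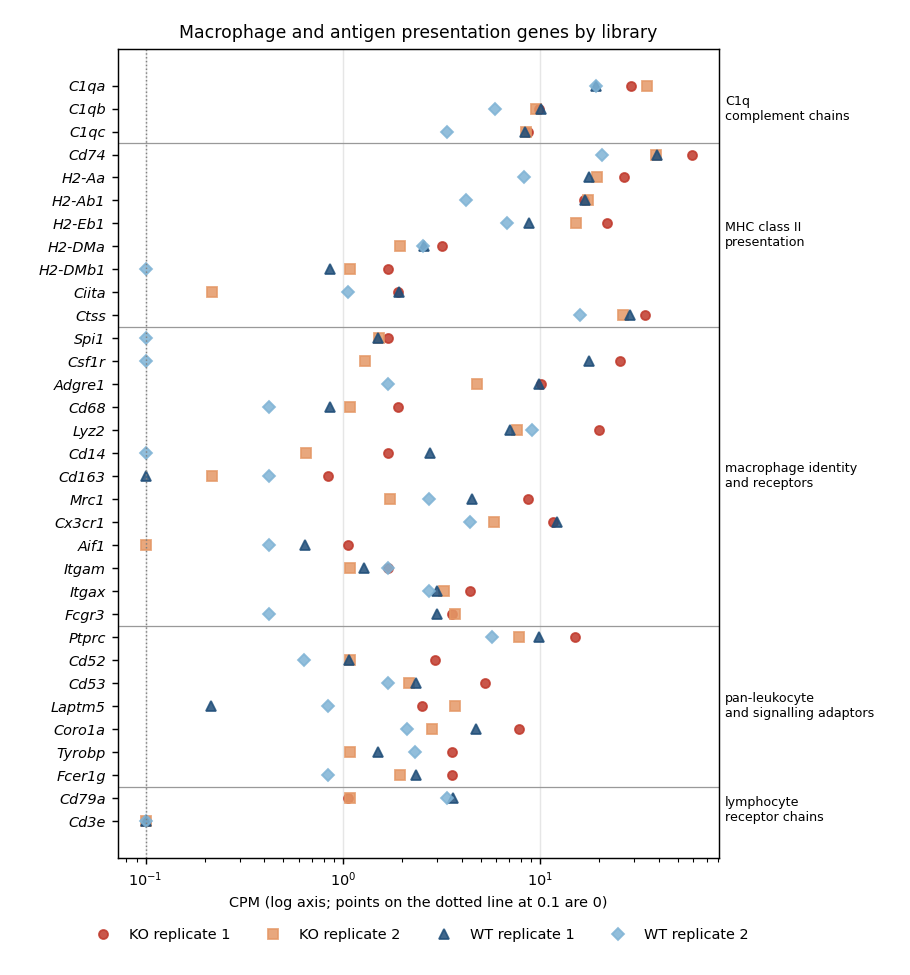
Level of each of the 33 genes in CPM (x axis, logarithmic) in the 4 libraries, grouped by role, with values of 0 drawn on the dotted line. WT replicate 2 (light diamonds) is the lowest point for 22 of the 32 genes above 0, and KO replicate 1 (dark circles) the highest for 22.

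C1qa was second to Cd74 among the members in mean WT FPKM. C1qa encodes the A chain (chromosome 4, 136895916 to 136898844) and measured 28.9 and 35.0 CPM (KO) against 19.3 and 19.2 CPM (WT). Both KO libraries lay above both WT libraries, and the WT libraries were almost equal. The log2 fold change was 0.73 ± 0.19 SE (edgeR adjusted p = 0.212), with a low of 0.58 when KO replicate 2 was left out and a high of 0.85 when KO replicate 1 was. C1qb, the B chain gene (chromosome 4, 136880126 to 136886200), measured 9.92 and 9.56 CPM (KO) against 10.1 and 5.92 CPM (WT). WT replicate 1 was the highest library for C1qb, so the groups overlapped (log2 fold change 0.28 ± 0.37 SE, edgeR adjusted p = 0.797). C1qc, the C chain gene (chromosome 4, 136889801 to 136892936), measured 8.65 and 8.47 CPM (KO) against 8.35 and 3.38 CPM (WT). Only WT replicate 2 was clearly apart (0.54 ± 0.47 SE, edgeR adjusted p = 0.683), and without that library the log2 fold change of C1qc was 0.04 and that of C1qb -0.05.

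The 3 chain genes lie side by side on chromosome 4 and were not equally abundant per length. In WT, C1qa averaged 18.3 FPKM, C1qb 7.20 FPKM and C1qc 4.71 FPKM. The FPKM of C1qa divided by that of C1qb was 3.09 and 3.87 in KO and 2.03 and 3.37 in WT. Divided by that of C1qc it was 3.93 and 4.87 in KO and 2.75 and 6.60 in WT. C1qa was therefore the most abundant chain RNA in each library, and both ratios overlapped between the genotypes.

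The classical class II genes and Cd74 had their lowest value in WT replicate 2. Cd74 was the most abundant member per length, at 36.1 FPKM in KO and 22.5 FPKM in WT. It measured 58.7 and 38.9 CPM (KO) against 39.2 and 20.7 CPM (WT). KO replicate 2 and WT replicate 1 were nearly the same, so the groups overlapped (log2 fold change 0.70 ± 0.31 SE, edgeR adjusted p = 0.412). H2-Aa, the alpha chain gene of I-A (chromosome 17, 34282744 to 34287823), measured 26.8 and 19.5 CPM (KO) against 17.8 and 8.25 CPM (WT). The groups did not overlap, but the gap between KO replicate 2 and WT replicate 1 was smaller than the spread within either group (0.83 ± 0.37 SE, edgeR adjusted p = 0.409).

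H2-Eb1, the beta chain gene of I-E (chromosome 17, 34305867 to 34316674), whose promoter held both motifs, measured 21.9 and 15.2 CPM (KO) against 8.78 and 6.77 CPM (WT). Both KO libraries were well above both WT libraries. Its log2 fold change was 1.26 ± 0.31 SE (edgeR adjusted p = 0.201). It stayed between 0.95 without KO replicate 1 and 1.49 without KO replicate 2. H2-Ab1, the beta chain gene of I-A (chromosome 17, 34263227 to 34269418), measured 16.7 and 17.6 CPM (KO) against 16.9 and 4.23 CPM (WT). Here 3 libraries were alike and WT replicate 2 was far below them. The log2 fold change was 0.70 ± 0.53 SE (edgeR adjusted p = 0.638). H2-Ab1 was at 0.02 without WT replicate 2 and at 2.00 without WT replicate 1, where its edgeR adjusted p was 0.0487, the single adjusted p under the threshold among the members in any alternative.

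Ratios of class II transcripts within a library varied from gene to gene. Cd74 divided by H2-Aa in FPKM was 1.92 and 1.67 in KO and 1.92 and 2.22 in WT, a narrow range across libraries whose H2-Aa level differed widely. H2-Eb1 divided by H2-Aa was 0.772 and 0.735 in KO and 0.477 and 0.785 in WT. H2-Ab1 divided by H2-Aa was 0.598 and 0.816 in KO and 0.882 and 0.461 in WT. None of these ratios separated the genotypes.

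The class II processing genes were less abundant, except Ctss. Ctss (chromosome 3, 95526786 to 95556405) measured 34.0 and 26.5 CPM (KO) against 28.5 and 15.9 CPM (WT), a log2 fold change of 0.45 with an SE of 0.29 and an edgeR adjusted p of 0.569. H2-DMa, the alpha chain gene of H2-DM, measured 3.17 and 1.95 CPM (KO) against 2.57 and 2.54 CPM (WT), and its log2 fold change was 0.01 ± 0.58 SE. The beta chain gene H2-DMb1, whose promoter window held both motifs, had 9 and 4 fragments in KO and 4 and 0 in WT. Ciita, the master regulator, had 10 and 1 fragments in KO and 10 and 5 in WT. H2-DMb1 and Ciita did not pass the filter, and at these counts a genotype difference was not detectable.

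A small set of B cell transcripts, cells that also carry class II, was present in KO replicate 1. The 9 B cell genes above 0, of 11 listed and 9 in the table, summed to 17.7 and 0.869 CPM (KO) against 2.57 and 1.06 CPM (WT). Ms4a1, which encodes CD20, measured 7.18 and 0.217 CPM (KO) against 0.857 and 0 CPM (WT). Cd79a, a B cell gene counted with the members and not in this sum, was lowest in KO replicate 1. It measured 1.06 and 1.09 CPM (KO) against 3.64 and 3.38 CPM (WT). The 13 neutrophil genes summed to between 1.07 and 2.74 CPM, with Mpo, Elane, Camp and Ly6g at 0 in all libraries. The 10 dendritic cell genes, of which 8 were above 0, summed to 34.2 and 28.9 CPM (KO) against 37.5 and 26.0 CPM (WT). Most of that came from Zbtb46, at 20.5 and 20.6 CPM (KO) against 25.1 and 19.0 CPM (WT), and from Naaa, at 8.44 and 7.60 CPM (KO) against 10.5 and 6.56 CPM (WT). Flt3, Xcr1 and Clec9a were each below 0.7 CPM in every library, and Cd209a and Batf3 were at 0. The part of B cells and dendritic cells in the class II values of KO replicate 1 was not tested, and without that library the median log2 fold change of the class II genes was 0.47, against 0.70 with it.

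**Figure D2:**
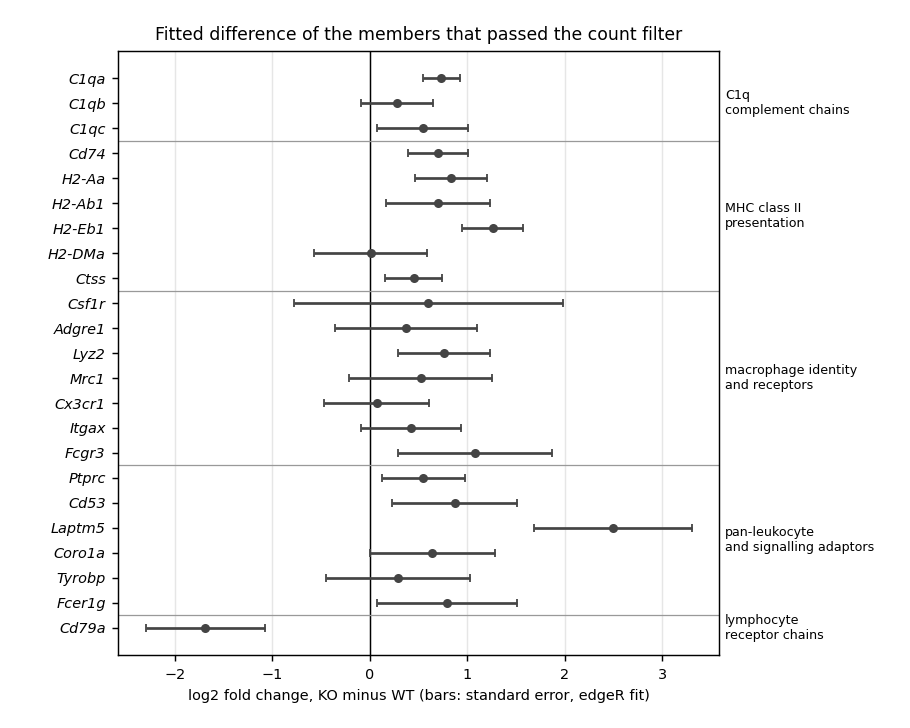
Fitted log2 fold change, KO minus WT, of the 23 members that passed the filter (x axis), with the standard error of the edgeR fit as bars. Points right of 0 are higher in KO: 22 members have a positive value, and Cd79a, at -1.69, is the negative one. Without KO replicate 1 the positive values were 13 of 24.

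Adgre1 and Cx3cr1, which mark tissue macrophages, differed more between replicates than between genotypes. Adgre1, which encodes the surface protein F4/80 (chromosome 17, 57358581 to 57483529), measured 10.1 and 4.78 CPM (KO) against 9.85 and 1.69 CPM (WT). Cx3cr1, the fractalkine receptor gene (chromosome 9, 120048683 to 120068296), measured 11.6 and 5.86 CPM (KO) against 12.2 and 4.44 CPM (WT). For both genes replicate 1 was high and replicate 2 low in each genotype. Their log2 fold changes were 0.37 ± 0.73 SE for Adgre1 and 0.07 ± 0.54 SE for Cx3cr1 (edgeR adjusted p = 0.881 and 0.975).

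Csf1r, the receptor for the growth factor that macrophages need, had the widest spread, at 25.5 and 1.30 CPM (KO) against 17.8 and 0 CPM (WT). Its deposited values were not whole multiples of a fragment in 2 libraries, and its locus is listed together with Hmgxb3, on the opposite strand. Hmgxb3 measured 49.4 and 46.3 CPM (KO) against 47.3 and 46.9 CPM (WT). The fit gave Csf1r 0.60 ± 1.38 SE (edgeR adjusted p = 0.899), and leaving out single libraries moved it from -2.75 to 8.98, so no direction can be read from it. Without Csf1r the median of the members was 0.60 over 22 genes.

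The receptor genes Mrc1, Fcgr3 and Itgax were low, and Lyz2 was more abundant. Lyz2, the lysozyme gene of myeloid cells, measured 19.8 and 7.60 CPM (KO) against 7.07 and 9.09 CPM (WT). KO replicate 1 alone stood out, and without it the log2 fold change of Lyz2 went from 0.76 to -0.10. Mrc1, the mannose receptor gene, measured 8.65 and 1.74 CPM (KO) against 4.5 and 2.75 CPM (WT). It had its highest and its lowest value in the KO libraries, with log2 fold changes of -1.06 without KO replicate 1 and 1.25 without KO replicate 2. Fcgr3, an activating Fc receptor gene, measured 3.59 and 3.69 CPM (KO) against 3.0 and 0.423 CPM (WT) (1.08 ± 0.79 SE, edgeR adjusted p = 0.623). Itgax, which encodes CD11c and marks islet macrophages as well as dendritic cells, measured 4.43 and 3.26 CPM (KO) against 3.0 and 2.75 CPM (WT) (0.42 ± 0.51 SE, edgeR adjusted p = 0.782).

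The remaining macrophage members were at the limit of detection. Cd68, a lysosomal membrane protein gene, had 10 and 4 fragments in KO and 4 and 2 in WT. Spi1, which encodes the myeloid master factor PU.1, had 9 and 6 in KO and 8 and 0 in WT. Cd14, the lipopolysaccharide co-receptor gene, had 9 and 3 in KO and 14 and 0 in WT. These 3 genes share their low counts in WT replicate 2. Itgam, which encodes CD11b, had 9 and 4 fragments in KO and 7 in each WT library. Aif1 had 5 and 0 in KO and 3 and 2 in WT, and the haemoglobin scavenger receptor gene Cd163 had 4 and 1 in KO and 0 and 2 in WT. None of these 6 passed the filter.

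Genes shared by all leukocytes had their highest value in KO replicate 1, apart from Laptm5. Ptprc, which encodes the CD45 phosphatase (chromosome 1, 138062859 to 138175756), measured 15.0 and 7.82 CPM (KO) against 9.85 and 5.71 CPM (WT). Its groups overlapped, and its log2 fold change, 0.55 ± 0.43 SE with an edgeR adjusted p of 0.647, was near 0 without KO replicate 1. Coro1a, an actin regulator gene of blood cells, measured 7.81 and 2.82 CPM (KO) against 4.71 and 2.11 CPM (WT) (0.64 ± 0.64 SE). Cd53, a tetraspanin gene, measured 5.28 and 2.17 CPM (KO) against 2.36 and 1.69 CPM (WT) (0.87 ± 0.64 SE). In Coro1a and Cd53 alike, KO replicate 2 lay within the range of the WT libraries. Cd52 had 15 and 4 fragments in KO and 5 and 3 in WT and did not pass the filter.

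Laptm5, a lysosomal protein gene of blood cells (chromosome 4, 130912890 to 130936148), had the largest fitted difference. It measured 2.53 and 3.69 CPM (KO) against 0.214 and 0.846 CPM (WT). Both KO libraries were above both WT libraries, at no more than 15 fragments in any of them. The log2 fold change was 2.49 ± 0.81 SE (edgeR adjusted p = 0.284), and it ranged from 1.83 without WT replicate 1 to 3.70 without WT replicate 2. In 3 of the 4 libraries the value of Laptm5 was not a whole number of fragments. Its inclusion in the test was not independent of the difference, since it passed the filter through the KO libraries alone.

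The signalling adaptors Tyrobp (DAP12) and Fcer1g, which couple activating receptors to kinases, were at similar low levels. Tyrobp measured 3.59 and 1.09 CPM (KO) against 1.5 and 2.33 CPM (WT) (0.29 ± 0.74 SE). Fcer1g measured 3.59 and 1.95 CPM (KO) against 2.36 and 0.846 CPM (WT) (0.79 ± 0.72 SE). The groups overlapped for both, and neither passed the test (edgeR adjusted p = 0.914 and 0.706).

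The B cell receptor component gene Cd79a went the other way from the other tested members. Cd79a (chromosome 7, 24897497 to 24901858) measured 1.06 and 1.09 CPM (KO) against 3.64 and 3.38 CPM (WT), which is 6 and 4 fragments in KO and 19 and 15 in WT. The replicates were close in each genotype and the groups did not overlap. The log2 fold change was -1.69 ± 0.61 SE (edgeR adjusted p = 0.323) and lay between -1.74 and -1.65 with each library left out. Cd79a passed the filter through the WT libraries alone, so its inclusion was not independent of this difference. Its partner gene Cd79b measured 2.74 and 0 CPM (KO) against 0 and 0.423 CPM (WT), so the 2 genes of the same receptor complex did not follow each other. Pax5, the B cell identity factor gene, measured 1.06 CPM in KO replicate 1 and 0 in the other libraries.

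Transcripts of the T cell receptor complex were sparse. Cd3e was at 0, which allows up to 0.584, 0.739, 0.573 and 0.690 CPM in KO replicates 1 and 2 and WT replicates 1 and 2, from the 3 fragments that a count of 0 permits and for counting error only. Cd3d, Cd3g, Cd8b1 and Cd5 were also at 0 in all 4 libraries. Of the 20 genes of the T and NK cell list in the table, 11 were above 0, and they summed to 19.0 and 17.6 CPM (KO) against 15.0 and 8.88 CPM (WT). The 2 tested genes did not pass: Thy1, which is also expressed outside T cells, at 9.07 and 11.1 CPM (KO) against 8.14 and 5.50 CPM (WT) (0.56 ± 0.36 SE), and Lck at 2.74 and 4.78 CPM (KO) against 3.64 and 3.17 CPM (WT) (0.14 ± 0.52 SE). Lower down, Il7r measured 2.95 and 0.434 CPM (KO) against 0.857 and 0.211 CPM (WT), and Cd4, which mouse macrophages can also carry, 1.27 and 0.652 CPM (KO) against 0.857 and 0 CPM (WT). Cd2 and Cd247 were highest in KO replicate 1, at 1.27 and 1.06 CPM.

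Both KO libraries exceeded both WT libraries for 11 of the 32 members above 0, where 20.6% of all genes above 0 did so. Both lay below for 1 member, Cd79a, where 19.8% of all genes did so. The members were chosen with earlier results of these libraries known and tend to vary together, so these shares are a description.

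**Figure D3:**
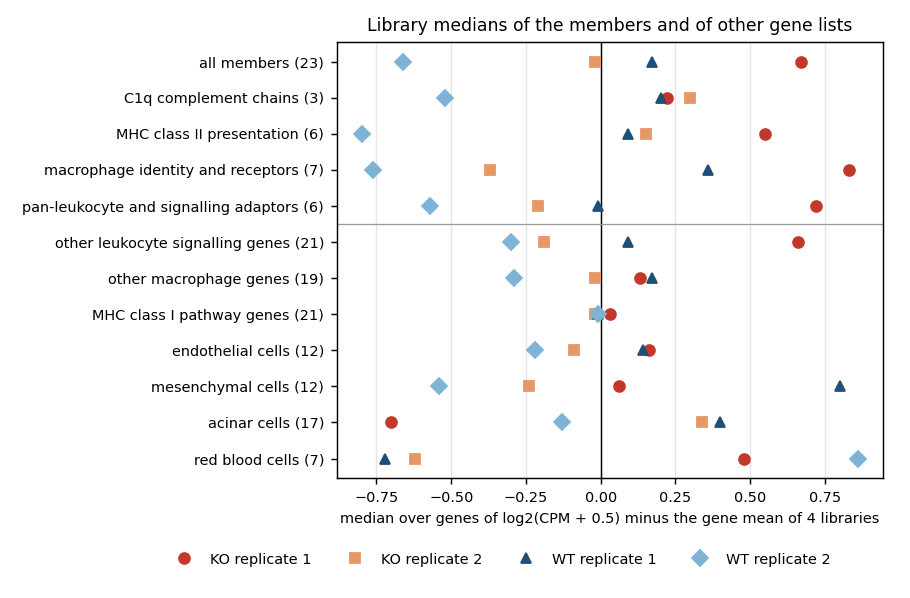
For each gene list (number of tested genes in parentheses), the median over genes of log2(CPM + 0.5) minus each gene's mean over the 4 libraries (x axis), 1 point per library. The members are at 0.67 and -0.02 (KO) against 0.17 and -0.66 (WT) for replicates 1 and 2, so the genotypes overlap.

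KO replicate 1 was the highest library for most members, and WT replicate 2 was the lowest for most. WT replicate 2 was the lowest library for 22 of the 32 members, where it was the lowest for 23.9% of all genes above 0. KO replicate 1 was the highest for 22 members, where it was so for 22.0% of all genes. In both genotypes replicate 1 exceeded replicate 2 for 23 members, where this held for 26.7% of all genes. Taken 2 libraries at a time, KO replicate 1 was above WT replicate 1 for 26 of the 32 members, against 48.0% of all genes above 0, and above WT replicate 2 for 30, against 49.7%. KO replicate 2 was above WT replicate 2 for 23, against 49.9%, and above WT replicate 1 for 14, against 47.6%. The median log2 fold change of the members was 0.13 and 0.94 with KO replicate 1 or 2 left out, and 1.17 and 0.21 with WT replicate 1 or 2 left out.

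The medians by role moved when single libraries were left out. The genes tested varied between these fits, and differences between roles were not tested. For the macrophage receptors the median was 0.52 with all libraries, -0.40 without KO replicate 1 and -0.09 without WT replicate 2. For the pan-leukocyte genes it was 0.71 with all libraries and 0.04 without KO replicate 1. For the C1q chains it was 0.54 with all libraries and 0.04 without WT replicate 2, while for the class II genes it was 0.70 and 0.20. Without WT replicate 1 the median was higher for each of these roles. It was 0.72 for the C1q chains, 1.33 for class II, 0.96 for the macrophage receptors and 1.31 for the pan-leukocyte genes. C1qa, H2-Eb1 and Laptm5 kept a log2 fold change of at least 0.58 whichever library was left out. Laptm5 passed the filter through the KO libraries alone, so its sign was not independent of the filter.

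Lists of other cell types also differed between these libraries, and no list below had its highest sum in KO replicate 1. The 12 mesenchymal genes summed to 1942 and 1599 CPM (KO) against 2781 and 1235 CPM (WT), and the 12 endothelial genes to 1437 and 1240 CPM (KO) against 1469 and 1203 CPM (WT). Both lists had their lowest sum in WT replicate 2 and their highest in WT replicate 1, and replicate 1 exceeded replicate 2 in each genotype. Red blood cell genes, 7 in the table, had another order: they summed to 255 and 119 CPM (KO) against 136 and 306 CPM (WT), and WT replicate 2 was the highest library for 6 of them. The 18 acinar genes were lowest in KO replicate 1, at 5656 CPM, with 11089 CPM in the other KO library and 13151 and 7961 CPM (WT). The part of these cell mixtures in the members' values was not tested.

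**Figure D4:**
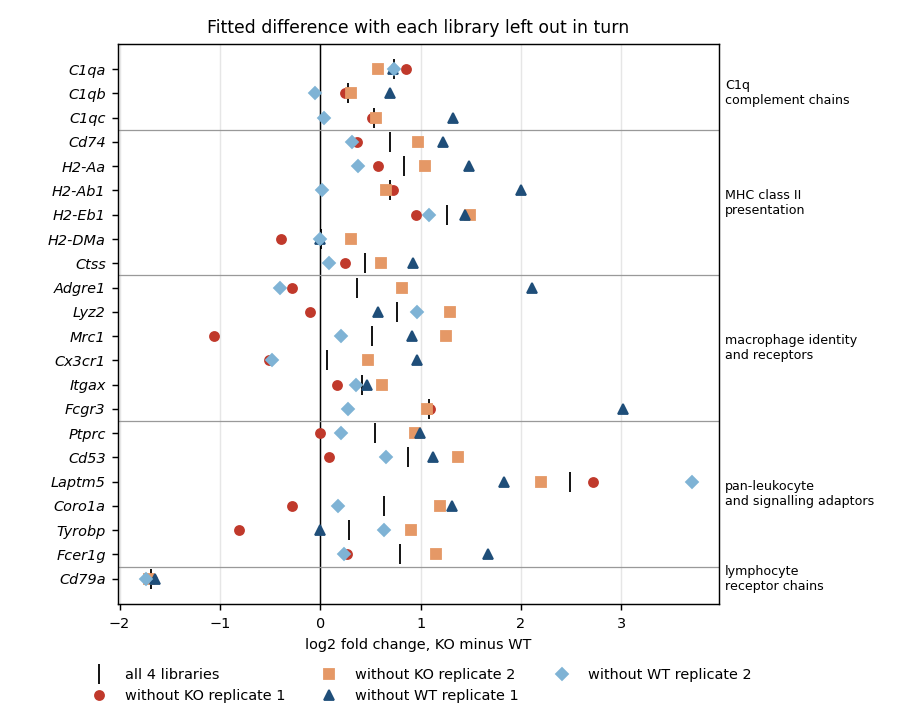
Log2 fold change, KO minus WT, of each tested member with all libraries (vertical tick) and with each library left out in turn (coloured points); Csf1r, from -2.75 to 8.98, is not drawn. C1qa, H2-Eb1 and Laptm5 stay at 0.58 or above. Several other members, Cd74 and H2-Aa among them, also stay right of 0, with smaller lowest values. Cd79a stays left of 0, while Adgre1, Cx3cr1 and Mrc1 fall on both sides. Laptm5 passed the filter through the KO libraries alone and Cd79a through the WT libraries alone, so their sides were not independent of the filter.

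Other genes of the same pathways had medians nearer to 0, and the difference from the members was not tested. Of 34 other complement genes in the table, 16 were tested, 10 with a positive and 6 with a negative log2 fold change, 0 were called, and the median was 0.13. The most abundant were the C1 inhibitor gene Serping1 (0.40 ± 0.20 SE), Clu (0.14 ± 0.23 SE) and C8b (-0.01 ± 0.24 SE). Chosen after their values were seen, 2 complement genes of phagocytes resembled C1qa. C3ar1, the receptor for C3a, measured 4.01 and 5.86 CPM (KO) against 1.07 and 1.69 CPM (WT) (1.82 ± 0.58 SE, edgeR adjusted p = 0.276). Properdin (Cfp), which steadies the alternative pathway, measured 11.4 and 6.52 CPM (KO) against 2.78 and 4.86 CPM (WT) (1.22 ± 0.47 SE, edgeR adjusted p = 0.354).

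For class II, the factors that bind the X and Y boxes were measured in every library. Of 21 other genes of the pathway 13 were tested, 9 with a positive and 4 with a negative value, 0 were called, and the median was 0.11. Rfx5, of the complex on the X box, measured 44.7 and 40.8 CPM (KO) against 39.6 and 35.5 CPM (WT) (0.19 ± 0.15 SE). Nfyc, of the trimer on the Y box, measured 54.2 and 66.5 CPM (KO) against 41.5 and 42.1 CPM (WT) (0.53 ± 0.16 SE, edgeR adjusted p = 0.249). The other subunits of the trimer were Nfya, at 47.1 and 45.0 CPM (KO) against 47.3 and 59.8 CPM (WT) (-0.22 ± 0.16 SE), and Nfyb (0.02 ± 0.17 SE). The other subunits of the X box complex were Rfxank (0.22 ± 0.32 SE) and Rfxap (-0.03 ± 0.27 SE), and Creb1, which binds beside them, was at -0.10 ± 0.15 SE. None of these 7 passed the test, their values lay on both sides of 0, and they were named after their values were seen. The most abundant of the list were the cathepsin genes Ctsb (0.37 ± 0.12 SE) and Ctsd (0.24 ± 0.12 SE) and March8 (0.03 ± 0.11 SE), whose product removes class II from the cell surface.

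MHC class I genes, which all nucleated cells use, had nearly equal library medians. Of 23 listed genes 21 were tested, 12 with a positive and 9 with a negative value, 0 were called, and the median was 0.11. Their library medians lay between -0.02 and 0.03, against -0.80 to 0.55 for the class II members. The 3 most abundant, the chaperone genes Pdia3 (0.46 ± 0.12 SE), Canx (-0.20 ± 0.11 SE) and Calr (-0.10 ± 0.11 SE), also serve general protein folding. The test of the difference between the class I and class II patterns was not made.

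Among 44 other macrophage genes in the table, 19 were tested, 12 with a positive and 7 with a negative value, 0 were called, and the median was 0.11. Abundant genes of this list included Apoe (0.04 ± 0.13 SE), a lipid carrier gene, and the bacterial lipopeptide receptor gene Tlr2 (0.94 ± 0.24 SE). Tlr2 measured 75.3 and 56.7 CPM (KO) against 27.0 and 41.9 CPM (WT), without overlap (edgeR adjusted p = 0.201). Mpeg1, a pore-forming protein gene of macrophages picked with its values in view, was at 38.6 and 24.5 CPM (KO) against 35.8 and 22.6 CPM (WT) (0.11 ± 0.29 SE), so replicate 1 was the higher in each genotype. Of 8 macrophage growth factor and receptor genes 6 were tested, 2 with a positive and 4 with a negative value, 0 were called, and the median was -0.05. The most abundant were Cx3cl1 (0.08 ± 0.20 SE), which encodes the ligand of Cx3cr1, Csf1 and Csf2ra (-0.51 ± 0.39 SE). Csf1 measured 22.6 and 13.5 CPM (KO) against 22.5 and 15.2 CPM (WT) (-0.06 ± 0.32 SE), and Il34, named after its values were seen, was at -0.04 ± 0.64 SE.

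Of 38 other leukocyte signalling genes 21 were tested, 17 with a positive and 4 with a negative value, and the median was 0.42. Cd44, the hyaluronan receptor gene, which epithelial cells express as well, was called higher in KO, at 200 and 205 CPM (KO) against 104 and 77.2 CPM (WT) (1.16 ± 0.15 SE, edgeR adjusted p = 0.0473). Sirpa (-0.23 ± 0.15 SE) and Ptpn6 (0.03 ± 0.19 SE), the next most abundant, did not pass. The library medians of the list were 0.66 and -0.19 in KO and 0.09 and -0.30 in WT, the same order of libraries at the top and the bottom as for the members.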

How the data were processed

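Islet RNA of 2 KO and 2 WT pools was sequenced as stranded, rRNA-depleted libraries with paired reads of 150 bases, per the labels' protocols. The submitters' processing notes name cutadapt 1.9.3, HISAT2 2.0.4, Cufflinks, Cuffdiff and mm10, while annotation and counting options were not given in the sources used here. Both FPKM and estimated counts per gene were deposited by the authors, per the file headers. The counts are scaled per library: 93.7% to 94.3% of the 9650 to 10505 values checked per library lay within 0.1 of a whole multiple of a fixed step, 0.901, 1.15, 0.901 and 1.09 in KO replicates 1 and 2 and WT replicates 1 and 2. Fragments are counts divided by that step.

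Counts of the 79 repeated symbols were summed, rounded and filtered with filterByExpr, which left 12789 of 22481 symbols. TMM and edgeR's quasi-likelihood test (edgeR 4.0.16, R 4.3.3; two-sided, genotype as the only term, Benjamini-Hochberg) gave log2 fold changes, and the SE is the fold change divided by the root of F. The p-values measure the spread between these pools, which may be technical. Limma 3.58.1, DESeq2 1.42.0, the other scalings and left-out libraries were alternatives. The edgeR and DESeq2 fits were tested on simulated counts. Limma was tested on simulated counts scaled to library size, not on FPKM. All members were named. From each pathway list, called genes and otherwise the most abundant up to 3 were named, and further genes were chosen after their values were seen. Some genes of these lists are not reported here. Members and lists were chosen with earlier results of these data known. Coordinates are RefSeq's (GRCm38.p6).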

Additional observations from a re-analysis of the deposited data

How the results depend on the processing

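The count of members called was 0 in each alternative run except without WT replicate 1, where it was 1, H2-Ab1, so leaving out single libraries gave 0 to 1. Their median log2 fold change, 0.60, was 0.41 to 0.70 under the other scalings, filters, units and tests. With single libraries left out it ranged from 0.13 to 1.17. Over all genes, 29 were called in the main test, 148 with DESeq2, 0 with each of the 3 limma fits, and 10 to 245 with single libraries left out. With a replicate block edgeR called 214 genes and 0 members, and the median of the members was 0.62. The lowest adjusted p-values of members in that edgeR fit were 0.0653 for Cd74 and 0.0668 for H2-Eb1. The replicate numbers are not said to pair the pools, and the deviations of same-numbered libraries correlated at 0.159 across genes, with 2 pairs. Of 270 member values under alternatives, 250 had the sign of the main value and 20, of 10 members, the other sign. Coro1a was at -0.14 with limma on log2(FPKM + 1), against 0.64 in counts. Depth is a further limit: 5 members had fewer than 10 fragments in every library.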

Other observations

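The deposited FPKM and counts disagreed for several members. For a gene of fixed length the FPKM per count should be the same in every library, and its highest value divided by its lowest was at most 1.09 for most members. It was 4.79 for Itgam, 4.10 for Spi1, 3.54 for Coro1a, 2.66 for H2-DMa, 2.46 for Aif1, 2.44 for Mrc1 and 2.13 for Laptm5. For Coro1a the mean was higher in WT in FPKM (4.76 against 4.30) and higher in KO in CPM (5.32 against 3.41). For Itgam WT replicate 1 had 1.15 FPKM from 7 fragments and WT replicate 2 had 0.318 FPKM from the same number.

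Lipid and bacterial product receptors of phagocytes were examined after their values were seen. Cd36, a fatty acid and scavenger receptor gene that endothelium also expresses, measured 32.5 and 35.2 CPM (KO) against 15.0 and 19.7 CPM (WT) (0.96 ± 0.21 SE, edgeR adjusted p = 0.149). Tlr4, the lipopolysaccharide receptor gene, measured 6.33 and 8.25 CPM (KO) against 3.43 and 4.02 CPM (WT) (0.96 ± 0.42 SE, edgeR adjusted p = 0.404), while its co-receptor gene Cd14 had 9 and 3 fragments in KO and 14 and 0 in WT. Lyve1, of resident macrophages and lymphatic endothelium, measured 26.4 and 24.1 CPM (KO) against 31.5 and 24.5 CPM (WT) (-0.15 ± 0.20 SE).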
